A study of Rattus norvegicus with 4 samples.

Results

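The 10 transcripts described here were probes of a rat whole-genome oligo array that had no gene name and whose ratio of running over sedentary hippocampus lay past a fold cutoff on both chips of a dye swap. They were selected on these measured ratios and on the deposited p-values of the same chips, so their ratios are given as a description and were not tested. The array held 41012 noncontrol probes, of which 30244 had no gene symbol through their accession. Of these unnamed probes, 20 were called in at least 1 comparison, and 10 of the 20 are the transcripts described. None of the 10 accessions matched an entry of the RefSeq table. Only accessions of RefSeq transcripts could match it, so for other kinds of record the missing name is a limit of the lookup.

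The RNA came from the hippocampus of male Wistar rats aged 10 weeks at the start, a stock that is outbred. Sedentary rats (Sed, 10 rats) lived in standard cages, and running rats were kept for 4 weeks with free access to a wheel that carried no resistance (WR, 8 rats) or a resistance (RWR, 8 rats). In RWR the wheel was set to 4.5 g in the first week and the load was then raised stepwise to 30% of body weight. All rats were housed singly. RNA of replicates was pooled within each group, and whether a replicate was a single rat is not stated in the sources used here. The WR pool was set against the sedentary pool on chips 1 and 2, and the RWR pool was set against it on chips 3 and 4. The running pool was labelled with Cy5 on chips 1 and 3 and with Cy3 on chips 2 and 4. A pair of chips measured the same pools with the dyes exchanged, so each comparison had 1 biological replicate, no test between conditions could be made, and the SD given over a pair is technical. An effect of running and a difference between the rats that were pooled cannot be told apart, and neither can fewer cells of a type and less RNA per cell. A single sedentary pool is assumed on all 4 chips, so the comparisons share their control and are given side by side.

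The names of these probes are sequence records and not genes. An accession that begins with ENSRNOT is an Ensembl transcript model, one with XM is a messenger RNA that RefSeq predicted from the genome, and one with TC is a cluster assembled from overlapping expressed sequence tags. An expressed sequence tag is a single read from the end of a cloned cDNA, so it shows that an RNA was once cloned and says little about its full length or its protein. Arrays of that period carried many such records because the rat genome was then sparsely annotated, and models of this kind have often been merged, renamed or withdrawn in later releases.

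By kind of record, 4 of the 10 were assembled clusters (TC618365, TC603172, TC635983 and TC619926), 2 were predicted mRNAs (XM_221817 and XM_238631), 2 were Ensembl transcripts (ENSRNOT00000056718 and ENSRNOT00000039225) and 2 were expressed sequence tags (BG673684 and AI104589). Over all noncontrol probes, assembled clusters made up 6.94%, predicted mRNAs 10.3%, Ensembl transcripts 21.5% and GenBank mRNAs or tags 28.3%. Records of curated RefSeq mRNAs, 27.2% of all probes, were absent among the 10. The 10 were chosen among probes left unnamed by a lookup in RefSeq, so this absence follows largely from the selection. The shares of the kinds among unnamed probes alone were not computed, so nothing is read from these percentages. Each of the 10 had 1 probe on the array with 1 spot, and the 2 closest of these spots were 15 rows or columns apart. Probe sequences and genome positions of the 10 were not analysed here.

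Several facts of the chips bear on these values. Of the noncontrol spots, 67.5% to 77.6% were well above background in Cy3, as were 71.7% to 82.5% in Cy5. Once every ratio was turned to running over sedentary, the 2 chips of each pair correlated negatively across all probes. Pearson's r was -0.761 in the WR pair and -0.686 in the RWR pair, while the chips that shared the dye of the running pool correlated positively (0.712 with Cy5 and 0.700 with Cy3). These correlations are across probes, which are not independent replicates. Most ratios therefore followed the dye rather than the pool, and the directions below rest on the dyes given in the labels. Markers of neurons (7 of 7 genes with a probe) and of the hippocampus (2 of 2) were well above background in the sedentary dye on all chips. None of the 10 spots was saturated or carried an outlier flag on any chip.

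A probe was called when both chips of its pair gave a ratio over 1.5-fold, or both a ratio under 0.75-fold, and the deposited p-value was under 0.01 on each of them. That p-value belongs to the scanner software's error model for a single chip and says nothing about rats. In Sed × WR, 12 of 41008 probes were called lower (0.0293%) and 1 was called higher (0.00244%), with 4 of the 10 transcripts among those called lower and 0 among those called higher. In Sed × RWR, 20 of 41007 probes were called lower (0.0488%) and 4 were called higher (0.00975%), with 9 of the transcripts lower and 1 higher. The transcripts were picked from these calls, so nothing is read from the comparison of their count with that background. Without a gene name, 6 probes were called in Sed × WR and 18 in Sed × RWR.

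The median log2 ratio of the 10 was -0.54 in WR and -0.92 in RWR, beside 0.00486 and -0.00192 over all probes. Between the chips of a pair, the log2 ratios of the 10 differed by a median of 0.17 in WR and 0.25 in RWR, beside 0.34 and 0.32 over all probes. In RWR all 10 had the same sign on both chips, and in WR 7 did, while 22.4% of all probes in WR and 27.2% in RWR kept their sign. All 10 were selected for passing on both RWR chips and 4 of them on both WR chips. The medians, the larger size in RWR, the shared signs and the small gaps between chips follow from that selection and carry no support. The same holds largely for which pools overlap in the signals of single probes below. The plot of processed signals shows each pool on each chip.

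**Figure D1:**
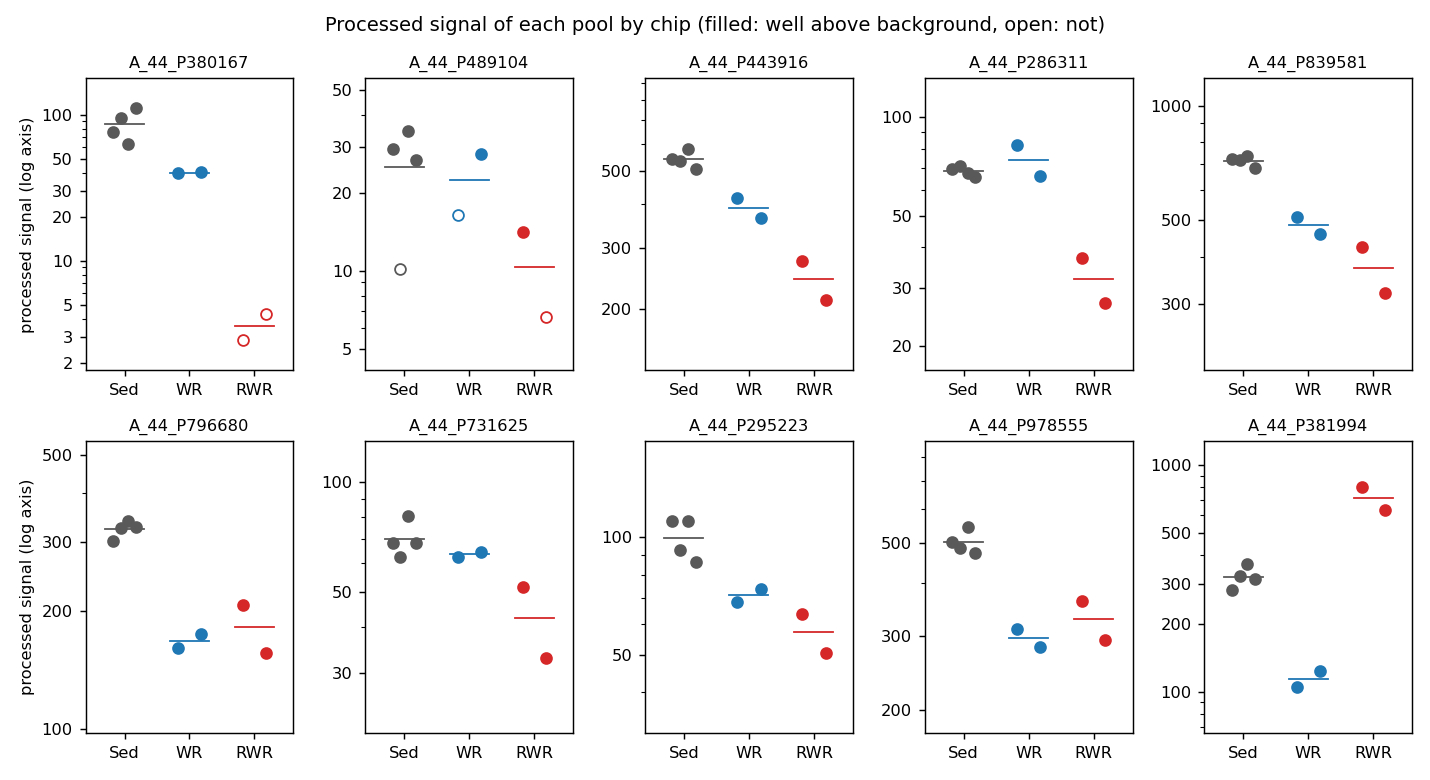
Processed signal (background-subtracted and dye-normalized, log axis, own scale in each panel) of the 10 probes in the sedentary pool on 4 chips (grey) and in the WR pool (blue) and the RWR pool (red) on 2 chips each, with the mean of the chips as a line. Filled points were well above background and open points were not. In RWR 9 of the 10 probes lay outside the range of the sedentary pool, and in WR 7 did. The probes were selected on ratios to the sedentary pool on these chips, so the counts follow largely from the selection. The share over all probes was not computed.

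A_44_P381994, the probe for XM_221817, was the only 1 of the 10 that was called in opposite directions in the running modes. Its processed signal in the sedentary pool was 280, 326, 368 and 316 on chips 1 to 4. In the WR pool it was 105 on chip 1 and 123 on chip 2, below every sedentary value. In the RWR pool it was 798 on chip 3 and 631 on chip 4, above every sedentary value. The 3 pools thus did not overlap, and all 8 measurements were well above background. The log2 ratio of WR over sedentary was -1.41 on chip 1 and -1.40 on chip 2, each with an error of 0.25 in the software's model. Over the pair it was -1.41 ± 0.01 (SD, 2 chips), or 2.65-fold lower in WR. With normexp, a background correction that keeps every signal above 0, that mean was -0.85, and with no background correction -0.87. The ratio of RWR over sedentary was 1.12 on chip 3 and 1.00 on chip 4, with an error of 0.23 and 0.22, and 1.06 ± 0.08 over the pair, or 2.08-fold higher in RWR. The difference between the modes was 2.46 on the log2 scale, or 1.79 with normexp and 1.76 with no correction, and was not tested, since each mode had 1 pool. It was also present before any correction, with raw median signals in the WR pool of 289 (Cy5) and 347 (Cy3) against 641 (Cy3) and 795 (Cy5) in the sedentary pool on the same chips. In the RWR pool the raw medians were 1503 (Cy5) and 1106 (Cy3) against 682 (Cy3) and 742 (Cy5).

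Ttr, a marker of the choroid plexus, also differed in the WR pair. The choroid plexus is the tissue that secretes cerebrospinal fluid and lies against the hippocampus. Of 6 of its marker genes with a probe, 2 were well above background in the sedentary dye on all chips. The summed processed signal over all 6 ranged from 612 to 622 in the sedentary pool and from 338 to 428 in the WR pool. On the RWR chips it ranged from 675 to 703 in the sedentary pool and from 705 to 796 in the RWR pool. Ttr, which encodes the thyroid hormone carrier transthyretin and is the most abundant transcript of that tissue, was called lower in WR at a mean log2 ratio of -0.86 and stood at 0.12 in RWR. The other 5 markers were not called, with mean log2 ratios in WR from -0.35 to 0.43, and the median of the 6 was -0.085. Kcne2 and Kl, other markers of the tissue, were well above background on 0 of the chips in the sedentary dye. The part of the Ttr difference in the WR ratios of the 10 transcripts was not tested.

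A_44_P380167, the probe for ENSRNOT00000056718, was at the background in the RWR pool. Its processed signal in the sedentary pool was 75.6, 94.7, 63.3 and 110 on chips 1 to 4, well above background each time. In the WR pool it was 39.5 and 40.1, below every sedentary value, and the log2 ratios were -0.94 and -1.24. Their mean was -1.09 ± 0.21 (SD, 2 chips), or 2.13-fold lower in WR. With normexp the WR mean was -0.33 and with no background correction -0.40, neither of which reached the 0.75-fold cutoff. In the RWR pool the signal was not well above background on either chip. The background-subtracted signal was -3.96 on chip 3 and 2.07 on chip 4, and 69 and 3 of the 153 negative-control spots of that dye and chip reached it. The software replaced these values by positive ones, 2.84 and 4.33, from which the deposited log2 ratios of -4.48 and -4.67 arose. Those ratios are set by the replacement value and are not a measured fold. For a fold, the RWR signal was set to the lowest level that any probe had well above background on that chip and dye. After a normalization of the dyes across chips (Aquantile), the transcript was then 5.26-fold lower in RWR than in the sedentary pool. A spot not well above background need not lie below that level, and the ratios with other background corrections, given below, were smaller. The value is thus not a strict lower bound.

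The raw signals of this probe show how much the subtraction matters. On chip 3 the RWR pool gave a raw median of 85.0 in Cy5 with a local background of 66.5, against 364 and 89.0 for the sedentary pool in Cy3. On chip 4 it gave 214 in Cy3 with a local background of 86.0, against 290 and 68.0 for the sedentary pool in Cy5. In Cy3 the software thus took off more than the local background, since 214 became 2.07. The ratio of RWR over sedentary was below 0 on the log2 scale with every correction, at -1.29 with normexp and -0.98 with no correction.

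A_44_P796680 (TC618365) and A_44_P978555 (TC603172), both assembled clusters, were called lower in both running modes. For A_44_P796680 the processed signal was 301, 325, 338 and 328 in the sedentary pool, 161 and 174 in the WR pool, and 207 and 156 in the RWR pool. Both running pools lay below every sedentary value and overlapped each other. On the log2 scale its mean ratio was -0.90 ± 0.0016 in WR and -0.89 ± 0.25 in RWR (SD, 2 chips each), which is 1.86-fold and 1.85-fold lower. The RWR ratio was -0.58 with no background correction. For A_44_P978555 the signal was 503, 484, 544 and 473 in the sedentary pool, 311 and 283 in the WR pool, and 363 and 294 in the RWR pool. Again both running pools were below every sedentary value. The mean ratio on that scale was -0.74 ± 0.06 in WR and -0.63 ± 0.07 in RWR, or 1.66-fold and 1.55-fold lower. Its ratio on chip 3, -0.58, was close to the cutoff, and with cutoffs of equal size in both directions it was not called in RWR.

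A_44_P443916 (BG673684, a tag) and A_44_P839581 (TC635983, an assembled cluster) were called in RWR and in WR lay between their sedentary and RWR levels. The processed signal of A_44_P443916 was 542, 534, 579 and 505 in the sedentary pool, 417 and 365 in the WR pool, and 274 and 212 in the RWR pool. The 3 pools did not overlap, with the order sedentary, WR and RWR from high to low. WR over sedentary had a mean log2 ratio of -0.46 ± 0.12, and RWR over sedentary one of -1.17 ± 0.12 (SD, 2 chips each), the latter 2.24-fold lower. It was not called in WR because its ratio on chip 1 was -0.38. The processed signal of A_44_P839581 was 723, 717, 737 and 685 in the sedentary pool, 509 and 460 in the WR pool, and 425 and 321 in the RWR pool. The order of the pools was the same and they did not overlap either. On the log2 scale the mean ratio was -0.57 ± 0.10 for WR and -0.94 ± 0.21 for RWR, the latter 1.92-fold lower. In WR its ratios of -0.51 and -0.64 passed the fold cutoff, and the deposited p-value on chip 1 was 0.0158. In the sedentary pool the highest of the 4 chips was 1.15 times the lowest for A_44_P443916 and 1.08 times for A_44_P839581. Both probes were called in RWR and not in WR from these same signals. That the RWR pool lay furthest from the sedentary pool thus follows largely from the selection. The share of all probes with this order of pools was not computed.

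**Figure D2:**
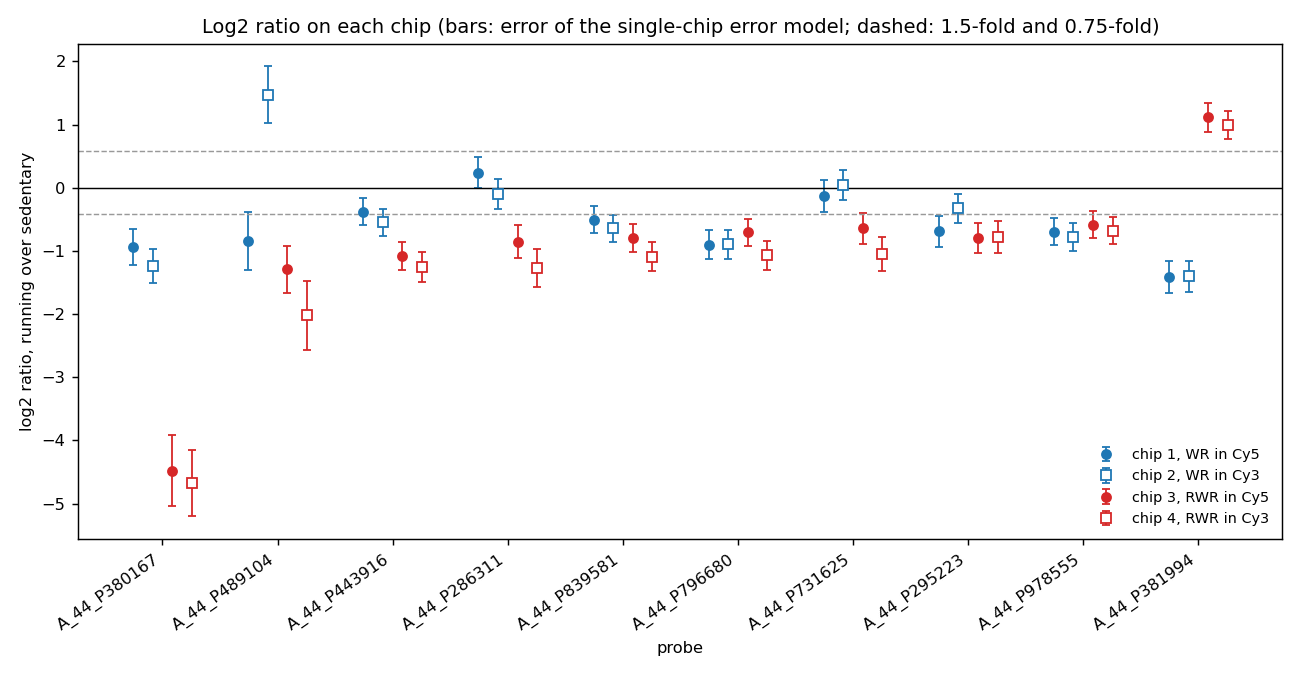
Log2 ratio of running over sedentary for each of the 10 probes on each chip (blue: WR, red: RWR, filled circles: running pool in Cy5, open squares: running pool in Cy3), with the error of the software's single-chip model as bars and the 1.5-fold and 0.75-fold cutoffs as dashed lines. In RWR 9 probes lie below the lower cutoff on both chips and A_44_P381994 above the upper one, and the WR ratios of A_44_P489104 lie 2.32 apart on opposite sides of 0. The RWR points of A_44_P380167 rest on replaced signals.

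A_44_P286311 (XM_238631, a predicted mRNA) and A_44_P731625 (TC619926, an assembled cluster) were nearer to background and were called in RWR. The processed signal of A_44_P286311 was 69.4, 70.7, 67.2 and 65.4 in the sedentary pool, 81.7 and 66.2 in the WR pool, and 37.1 and 27.0 in the RWR pool. The WR values overlapped the sedentary ones, and the RWR values lay below them. Its mean log2 ratio was 0.07 ± 0.23 in WR, with opposite signs on the chips, and -1.07 ± 0.29 in RWR, or 2.09-fold lower. For A_44_P731625 the signal was 68.1, 62.2, 80.9 and 68.1 in the sedentary pool, 62.4 and 64.3 in the WR pool, and 51.7 and 32.9 in the RWR pool. The pools stood in the same relation, with WR inside the sedentary range and RWR below it. Its mean ratio on the log2 scale was -0.04 ± 0.12 for WR and -0.85 ± 0.29 for RWR, or 1.80-fold lower. With normexp the RWR ratio was -0.44, and with no background correction it was -0.35 and short of the cutoff. With opposite signs on the chips, the WR ratios of both probes were smaller than the spread between the chips.

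A_44_P295223, the probe for ENSRNOT00000039225, had a processed signal of 110, 92.6, 110 and 86.4 in the sedentary pool. It was 68.3 and 73.8 in the WR pool and 63.7 and 50.4 in the RWR pool. Both running pools lay below every sedentary value. The log2 ratios in RWR were -0.79 and -0.78, with a mean of -0.78 ± 0.01 (SD, 2 chips) that is 1.72-fold lower. With normexp this mean was -0.55 and with no background correction -0.42. In WR they were -0.69 and -0.33, and the second missed the fold cutoff, with a mean of -0.51 ± 0.26.

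A_44_P489104 (AI104589, a tag) was close to background, and its ratio in the WR pair followed the dye. The processed signal was 29.4, 10.2, 34.5 and 26.8 in the sedentary pool, so that its highest value was 3.39 times its lowest. It was 16.4 and 28.2 in the WR pool and 14.1 and 6.60 in the RWR pool. The RWR values overlapped the sedentary range. On chips 1 and 2 the Cy3 signal was well above background and the Cy5 signal was not, whichever pool it held. The log2 ratios of WR over sedentary were accordingly -0.84 and 1.47, with a mean of 0.31 ± 1.64 (SD, 2 chips). In RWR they were -1.29 and -2.02, with a mean of -1.66 ± 0.52, but the RWR signal was well above background on chip 3 alone. With normexp the RWR ratio was -0.49 and without background correction -0.38.

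For the probes near background the raw signals and the deposited ratios did not always point the same way. On chip 4, where the RWR pool was labelled with Cy3, the raw median of A_44_P286311 was 232 in the RWR pool and 204 in the sedentary pool. That of A_44_P731625 was 249 and 214, and that of A_44_P489104 was 186 and 127. In these probes the raw Cy3 signal was the higher on all 4 chips, and the deposited ratio below the sedentary pool on chip 4 came from the subtraction and the dye normalization. In A_44_P380167 and A_44_P295223 the raw median of the running pool was below that of the sedentary pool on every chip, but narrowly so in places. For A_44_P295223 it was 277.5 against 282 on chip 2 and 245.5 against 253 on chip 4, and for A_44_P380167 it was 264 against 282 on chip 2. For A_44_P443916, A_44_P839581, A_44_P796680 and A_44_P978555 it was also below on every chip and in either dye. The difference was wider where the sedentary pool was in Cy5, as for A_44_P839581 with 1706.5 against 739 on chip 2 and 1235 against 985 on chip 1. A_44_P381994 was below the sedentary pool in WR and above it in RWR in both dyes.

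**Figure D3:**
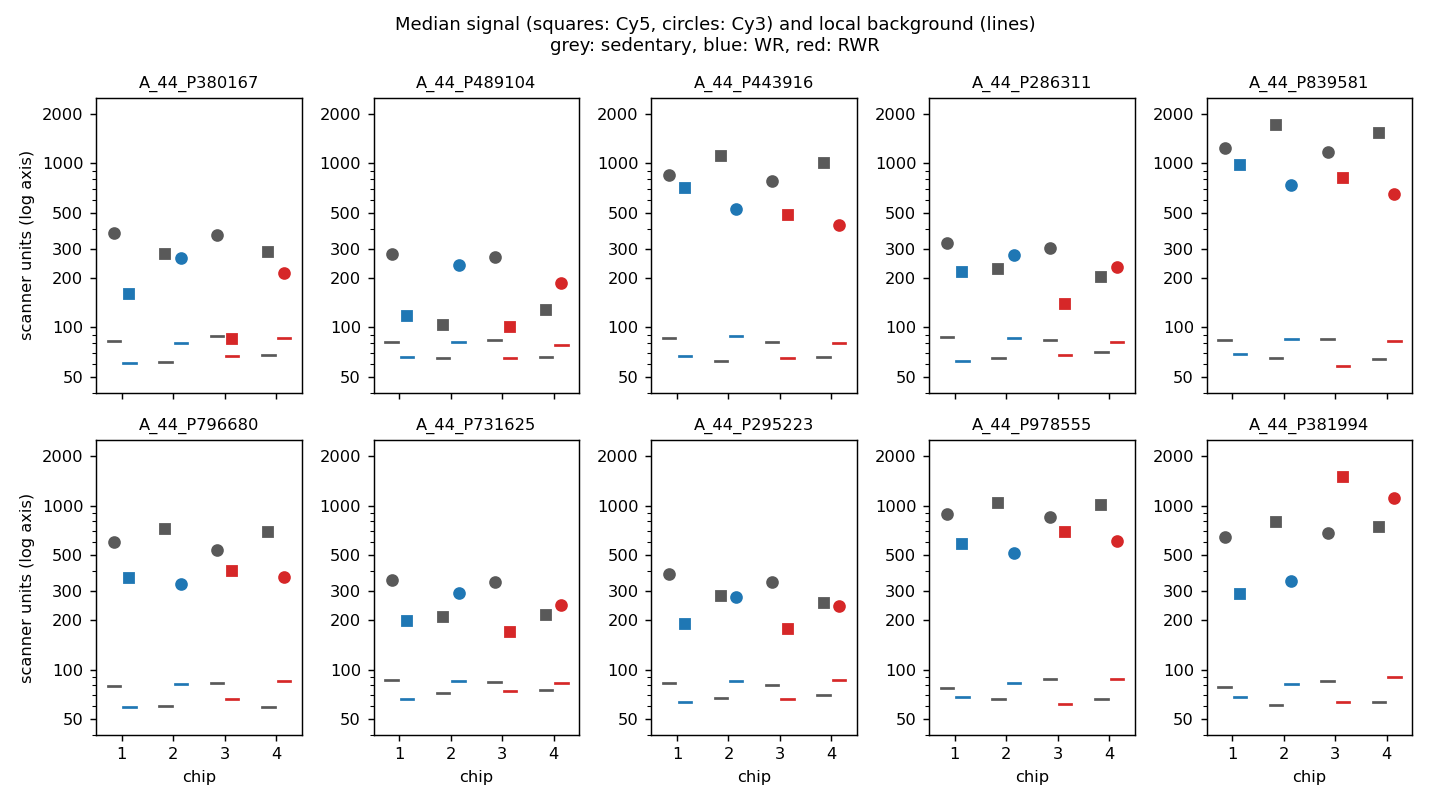
Raw median signal of each of the 10 spots (squares: Cy5, circles: Cy3; grey: sedentary, blue: WR, red: RWR) and the local background of the spot in the same dye (short lines) on the 4 chips, in scanner units on a log axis. In A_44_P286311, A_44_P731625 and A_44_P489104 the Cy3 spot is the higher on all 4 chips, while in A_44_P381994 the RWR pool is above the sedentary pool in both dyes.

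The size of the ratios depended on the background correction, mostly at the probes near background. For the 4 transcripts called in WR the median size of the log2 ratio was 0.99 as deposited, 0.60 with normexp and 0.60 with no background correction. For the 10 called in RWR it was 1.00, 0.61 and 0.52. In RWR all 10 kept their direction with either correction, and 7 lay past the fold cutoff on both chips with normexp and 5 with no correction. In WR 9 of the 10 kept it, and 2 and 3 lay past the cutoff. Direction here is that of the mean of a pair. The transcripts were selected on the deposited ratios, and the shares over all probes with these corrections were not computed. Nothing is thus read from these counts. In RWR the smallest moves were those of A_44_P839581, A_44_P381994 and A_44_P978555. The ratio of A_44_P839581 was -0.94 as deposited, -0.88 with normexp and -0.84 with no correction, and that of A_44_P381994 was 1.06, 0.94 and 0.89. At A_44_P286311 it was -1.07, -0.46 and -0.36.

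**Figure D4:**
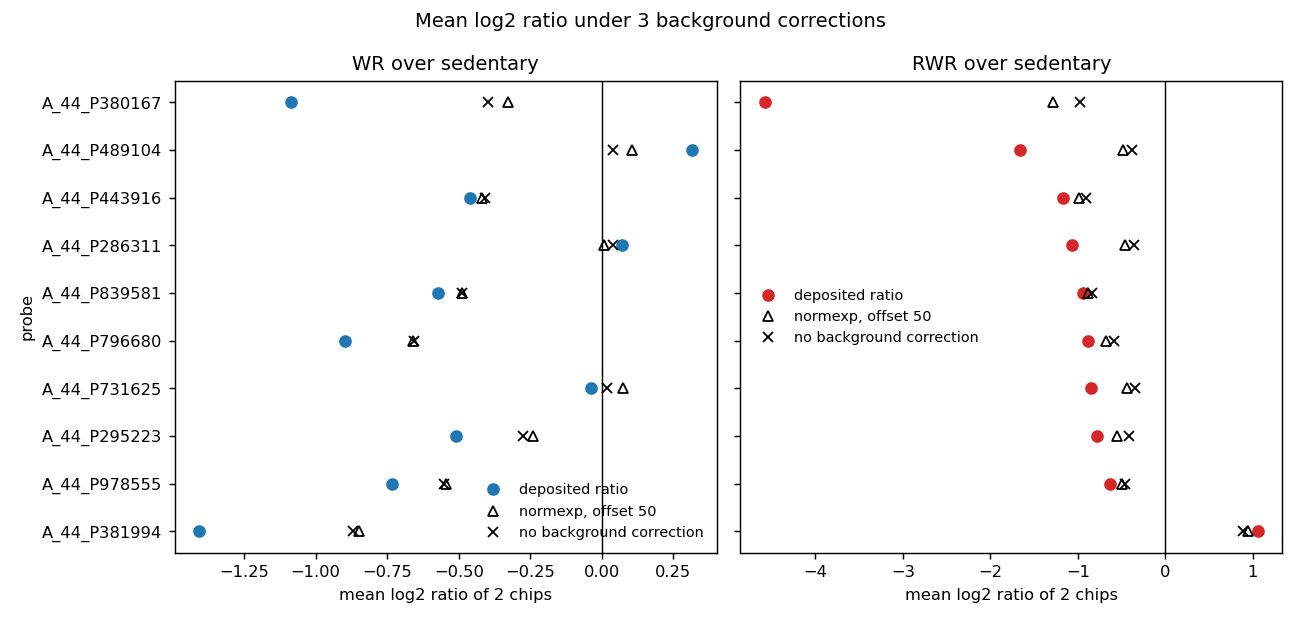
Mean log2 ratio of the 2 chips for WR over sedentary (left) and RWR over sedentary (right) of the 10 probes, as deposited (filled circles), with normexp background correction at an offset of 50 (triangles) and with no background correction (crosses). Most triangles and crosses lie nearer to 0 than the circles, by the most at A_44_P380167 and A_44_P489104 in RWR. The horizontal scales of the panels differ.

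For the 8 transcripts well above background in both dyes on all 4 chips, the named genes with the closest ratios were found by the Euclidean distance of the log2 ratios over the 4 chips, among 7370 named probes of 5926 genes. A_44_P381994 had no close neighbour, since the nearest, Ttr, was at a distance of 1.55. It was followed by Prl3d4, a placental member of the prolactin family (1.80), and Gal, which encodes the neuropeptide galanin (1.93). The transcripts lower in both modes were close to named genes that were themselves called in at least 1 comparison. A_44_P978555 lay at 0.16 from Rsad2, an interferon-induced antiviral enzyme, and at 0.27 from Rpl13, a protein of the large ribosomal subunit. A_44_P796680 lay at 0.31 from Grifin, a galectin-related protein of the lens, and at 0.34 from Rpl13. Rpl13 was also the nearest gene to A_44_P839581 (0.49) and A_44_P295223 (0.46), and Grifin to A_44_P443916 (0.72). The transcripts called in RWR with WR near the sedentary level had an olfactory receptor gene as their nearest, Olr59, at 0.47 from A_44_P731625 and at 0.83 from A_44_P286311. Myh3, the embryonic heavy chain of skeletal muscle myosin, was among the 3 nearest of 5 transcripts, but not through the same probe. Its probe A_44_P271442 was near A_44_P978555, A_44_P443916 and A_44_P295223, and its probe A_44_P472954 was near A_44_P286311 and A_44_P731625. These distances rest on the ratios that chose the transcripts and describe 4 chips.

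By the deposited p-value, the transcript nearest to the threshold in RWR was A_44_P731625, with log2 ratios of -0.65 and -1.05 and a larger deposited p-value of 0.00678. The unnamed probe just outside it was A_44_P335141, with ratios of -1.29 and -1.46 and a larger deposited p-value of 0.0106. In WR the transcript just inside by p-value was A_44_P978555 (0.00131), and the unnamed probe just outside was A_44_P1013314, with ratios of -0.84 and -0.55 and a larger deposited p-value of 0.0101.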

How the data were processed

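Hippocampal RNA pools of sedentary, WR and RWR rats were measured on 4 chips in 2 colours, designed on the rn4 build, and grouped by the dyes in the labels. The submitters' processing notes name Agilent Feature Extraction 11.0.1.1. The authors deposited, for each spot, the log10 ratio of Cy5 over Cy3 after background subtraction and LOWESS, its error and p-value from the single-chip error model, and the intensity of each dye (processed, background-subtracted, raw median and local background) with its flags. The series matrix that the authors deposited held the log10 ratio of the processed signals, not turned for the dye swap (difference at most 5e-06).

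Control spots and spots with an outlier flag (118 to 140 per chip) were left out. Log ratios were turned to running over sedentary, put on the log2 scale and averaged over the spots of a probe. The fold cutoffs (1.5 and 0.75) and the p-value threshold of 0.01 are the study's, applied here to each chip of a pair. Accessions, stripped of their version, were looked up in the RefSeq table for assembly GRCr8, used for names only, which named 10768 of 41012 probes. The probes named are the 10 transcripts, probes sharing their accession (none beyond their own), the 3 named genes nearest to each of the 8 well above background throughout, and Ttr and Prl of the tissue lists. Of these lists, blood, microglia and pituitary markers had summed signals whose ranges overlapped between the pools of a pair. On the WR chips microglia markers ranged from 6975.9 to 7685 in the sedentary and from 7427 to 7723 in the WR pool. Blood markers ranged from 625 to 669 and from 606 to 663, and pituitary markers from 784 to 804 and from 715 to 806. On the RWR chips microglia markers ranged from 7169 to 8462 in the sedentary and from 8165 to 8990 in the RWR pool. Blood markers ranged from 677 to 767 and from 648 to 738, and pituitary markers from 898 to 922 and from 913 to 931. Prl, a pituitary hormone, was called lower in RWR although its RWR signal was not well above background. The members, lists and cutoffs were chosen with earlier results of these data known.

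For a probe at background in a pool, the fold used Aquantile-normalized processed signals with that pool set to the lowest level well above background. Alternatives were the p-value filter, cutoffs of equal size, a filter on dim probes, normexp (offset 50) or no background correction of median signals with loess, median centring, the series matrix and each chip left out. The selection rule was also run on simulated data whose errors were independent between chips and held no dye effect. Most ratios of these chips followed the dye, so that run says nothing about the transcripts. The number of chips limits the precision. Probe sequences and positions, planned as a description, were not analysed here. Python 3.11.15 with numpy 2.4.6 and pandas 2.3.3, and R 4.3.3 with limma 3.58.1, were used.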

Additional observations from a re-analysis of the deposited data

Results flagged for a closer look

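A_44_P381994 (XM_221817) was lower than the sedentary pool on both WR chips and higher on both RWR chips, so that the log2 ratio of RWR minus that of WR was 2.46 (1.79 with normexp and 1.76 with no background correction). The difference between the running modes was not tested, because each mode had 1 pool measured on a pair of dye-swapped chips.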

How the results depend on the processing

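No paired analysis was possible because the chips of a pair hold the same pools and the labels carry no replicate numbers. Of the 10 transcripts, 4 were called in Sed × WR and 10 in Sed × RWR. With normexp the count in Sed × WR was 2, and with no background correction the count in Sed × RWR was 5. With either chip of a pair left out it ranged from 5 to 7 in Sed × WR, with 7 where chip 1 was left out, and was 10 in Sed × RWR each time. A call needs both chips to pass, so leaving out a chip could only keep or raise the count. Those counts therefore carry no support. The ratios of 3 transcripts changed sign in Sed × WR. With either chip left out, that of A_44_P489104 ranged from -0.84 to 1.47 (0.31 with both chips), that of A_44_P286311 from -0.0947 to 0.236 (0.0706 with both) and that of A_44_P731625 from -0.125 to 0.0480. For A_44_P731625 it was also 0.0726 with normexp and 0.0175 with no background correction (-0.0387 as deposited). The cause was not tested. Of the 20 log2 ratios of the transcripts, all 20 moved by less than the spread between the chips of a pair with median centring and with the series matrix values. Neither setting could move a ratio by much. The median log2 ratio was 0 on chips 1 to 3 and -0.00706 on chip 4, and the matrix holds ratios of the same processed signals. With normexp 13 of the 20 moved by more than that spread, and so did 13 with no background correction. The filter on p-values, cutoffs of equal size, a filter on dim probes and median centring gave 4 or 5 calls in Sed × WR and 8 to 10 in Sed × RWR. Loosening the filter on p-values could likewise only keep or raise a count. Signals near background limit the ratios of A_44_P380167 and A_44_P489104, and also those of A_44_P286311, A_44_P731625 and A_44_P295223.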

Other observations

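The other 10 unnamed probes that were called are not among the transcripts above. In Sed × WR, A_44_P178671 (BI289714) was lower with a mean log2 ratio of -1.34, and A_44_P288015 (NM_001008859) with -0.71. In Sed × RWR, 3 tags were higher, A_44_P833199 (AW143635) at 0.86, A_44_P845078 (BM386352) at 0.80 and A_44_P976842 (DV718343) at 0.79. The remaining 5 were lower in Sed × RWR, with mean log2 ratios between -0.71 and -0.67.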
